A study of Homo sapiens with 12 samples.

Results

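Nilotinib was compared with its solvent, DMSO, in K562 cells that were being driven toward the red cell fate with hemin. The comparison used 6 of the 12 libraries of the series, 3 of cells given hemin and nilotinib (hemin nilotinib) and 3 of cells given hemin and DMSO (hemin DMSO), and followed every gene that passed a filter on low counts, 20821 of the 58735 genes in the count table. K562 is an established human leukemia line with an erythroid leaning that carries the BCR-ABL1 fusion kinase, so both groups share this kinase and the exposure to hemin. Hemin was given at 50 μM for 24 h to both groups. The hemin nilotinib cells had 0.1 μM nilotinib, and the hemin DMSO cells DMSO alone, from 24 h before hemin was added. The other 6 libraries (mock DMSO and mock nilotinib, without hemin) served to estimate the spread between replicates and as a reference level. By the study's methods cells were harvested at 0 or 24 h, and how long the mock nilotinib cells had been exposed to nilotinib is not certain, so hemin cannot be told apart from time in culture and length of exposure wherever hemin and mock groups are compared. The replicates of this single cell line are biological replicates by the study's account, and no separate clones or donors are involved.

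Nilotinib blocks the kinase activity of ABL1 and of its BCR-ABL1 fusion, whose signal runs through the RAS and ERK kinases, STAT5 and PI3 kinase, and it also binds ZAKα, a kinase that senses stalled ribosomes and activates p38 and the NLRP1 inflammasome. Hemin, the oxidized form of heme, sets off globin and heme production in K562 cells, and at the same time loads them with iron and with a pro-oxidant that unfolds proteins. Erythroid maturation is driven by the transcription factors GATA1, TAL1 and KLF1, which turn on globins, heme synthesis enzymes and red cell membrane proteins while genes of progenitors and of other blood lineages are turned off.

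The libraries held 36153691 to 41860655 counts in hemin DMSO and 35333809 to 40874699 in hemin nilotinib, so that 3 counts correspond to 0.0701 to 0.0957 CPM (counts scaled to a library of 1e+06 counts, after TMM, a correction for library composition). The markers of the line were present in all 6 libraries: GATA1 at 130 to 330 CPM, HBG1 (a fetal globin) at 288 to 2161 CPM, and BCR and ABL1 at 142 to 417 CPM. HBE1 (embryonic ε-globin) stood at 1.53 to 2.92 CPM. The annotated spans of HBE1 and of HBG2, another fetal globin gene, overlap on the same strand. How many reads of HBE1 were lost to this overlap is not known, so its low level is uncertain. Correlations of log2 CPM between replicates were 0.980 to 0.985 in hemin DMSO and 0.969 to 0.986 in hemin nilotinib. The 10 genes with most counts took 12% to 13.4% of each hemin DMSO library and 8.43% to 10.5% of each hemin nilotinib library.

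Hemin nilotinib replicate 1 stood apart from replicates 2 and 3 in genes that respond to hemin, iron and stress. TFRC, the transferrin receptor, was at 2845 CPM in this library and at 519 and 428 CPM in replicates 2 and 3, while the 3 mock nilotinib libraries, which had no hemin, were at 3007, 2809 and 2502 CPM. HMOX1 (heme oxygenase 1, which degrades heme) was at 0.402, 1.89 and 2.20 CPM in hemin nilotinib replicates 1, 2 and 3, DDIT4 at 9.28, 145 and 161 CPM, and TXNRD1 (thioredoxin reductase) at 304, 641 and 672 CPM. In these 4 genes replicate 1 lay outside the range of the other replicates of its group, in the direction of the mock nilotinib libraries and, for DDIT4, below them (42.9 to 75.6 CPM). For DDIT4, 41.2% of the exon length lies opposite another gene, which limits the reading of this gene in replicate 1. The part of this library in the results was measured by leaving it out, and values without it are given below for many of the gene groups, though not for every value that moved. Without it, 13828 of 21850 genes tested changed, against 13359 of 20821 with all libraries.

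Of the 20821 genes tested, 13359 (64.2%) changed between the groups, 6748 (32.4%) higher and 6611 (31.8%) lower with nilotinib, by edgeR's quasi-likelihood test at a Benjamini-Hochberg adjusted p under 0.05. These shares are the background for each gene group below. For the 14208 protein-coding genes alone, 28.9% were higher and 38.6% lower, with a median log2 fold change of -0.17. That is the closer reference for groups of protein-coding genes with small shifts. Gene groups were taken from 30 lists with 473 entries, of which 439 passed the filter, and a gene low in both groups was left out, so counts refer to tested members. In bulk RNA, a gene that falls in each cell and a smaller share of cells that express it cannot be told apart. The 3 libraries of each group did not overlap in 13224 genes (63.5%). The median log2 fold change of all tested genes was 0.022, and 0.199 when libraries were scaled by their totals alone. At least a 2-fold change together with the adjusted p was seen in 8936 genes, 4717 higher and 4219 lower, and at least an 8-fold change in 719 higher and 1020 lower. Fold changes are given as log2 of hemin nilotinib over hemin DMSO with the standard error (SE) of the fit, and adjusted p values are those of this test unless another is named.

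Promoter sequences are shown here as examples, each with a motif match, from gene groups described below. They are those of both cytosolic HSP90 genes (protein folding in stress) and of HSPA5 and CALR (chaperones of the endoplasmic reticulum). The others are those of KLF1 (an erythroid transcription factor) and ALAS2 (the first enzyme of erythroid heme synthesis). The first 4 fell and the last pair rose with nilotinib. Each is the 250 bases before the gene start in RefSeq (build GRCh38.p14), written 5′ to 3′ on the gene's own strand, with matches to a motif on either strand in capitals.
HSP90AB1 (chr6:44247693-44247942, plus strand): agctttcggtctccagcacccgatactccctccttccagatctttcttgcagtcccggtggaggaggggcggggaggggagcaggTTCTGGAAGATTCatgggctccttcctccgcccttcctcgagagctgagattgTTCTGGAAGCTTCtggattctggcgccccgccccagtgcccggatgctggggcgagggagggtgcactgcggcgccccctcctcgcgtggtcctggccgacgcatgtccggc
HSP90AA1 (chr14:102087045-102087294, minus strand): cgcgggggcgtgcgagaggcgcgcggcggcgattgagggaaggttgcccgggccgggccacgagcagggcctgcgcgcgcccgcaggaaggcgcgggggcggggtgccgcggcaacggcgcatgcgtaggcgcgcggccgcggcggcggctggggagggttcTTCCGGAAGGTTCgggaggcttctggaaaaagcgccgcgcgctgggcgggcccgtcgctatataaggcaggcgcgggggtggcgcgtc
HSPA5 (chr9:125241344-125241593, minus strand): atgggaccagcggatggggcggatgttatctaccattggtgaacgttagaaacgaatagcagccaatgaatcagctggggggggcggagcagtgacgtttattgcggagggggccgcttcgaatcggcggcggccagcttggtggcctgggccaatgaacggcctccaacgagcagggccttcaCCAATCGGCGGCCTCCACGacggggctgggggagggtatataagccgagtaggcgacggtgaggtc
CALR (chr19:12938359-12938608, plus strand): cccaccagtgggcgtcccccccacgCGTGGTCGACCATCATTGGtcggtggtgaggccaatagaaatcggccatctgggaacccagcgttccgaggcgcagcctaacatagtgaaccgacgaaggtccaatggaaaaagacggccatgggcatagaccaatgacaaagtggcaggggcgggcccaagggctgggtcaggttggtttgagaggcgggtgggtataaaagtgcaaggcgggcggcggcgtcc
KLF1 (chr19:12887202-12887451, minus strand): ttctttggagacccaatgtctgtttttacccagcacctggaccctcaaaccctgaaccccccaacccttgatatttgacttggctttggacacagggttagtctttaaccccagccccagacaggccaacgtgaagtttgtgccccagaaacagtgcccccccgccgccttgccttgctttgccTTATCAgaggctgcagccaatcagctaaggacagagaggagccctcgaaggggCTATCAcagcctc
ALAS2 (chrX:55030978-55031227, minus strand): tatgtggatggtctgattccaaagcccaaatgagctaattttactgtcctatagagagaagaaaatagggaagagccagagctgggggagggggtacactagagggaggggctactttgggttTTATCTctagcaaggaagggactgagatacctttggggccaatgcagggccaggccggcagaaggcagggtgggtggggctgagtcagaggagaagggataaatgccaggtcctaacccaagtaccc
Capitals mark the heat shock element in both HSP90 promoters (blocks GAA and TTC in turn, 3 in all, each separated by any pair of bases), the ER stress element in HSPA5 and CALR (the block CCAAT followed, after 9 other bases, by the block CCACG), and the GATA motif in KLF1 and ALAS2 (GATA with A or T before it and A or G after it). The heat shock element occurred in 0.441% of the 35116 RefSeq promoters and in 6 of the 24 promoters of the heat shock genes described below, those of HSPD1, HSP90AB1, SERPINH1, CHORDC1, HSPA8 and HSP90AA1. The promoters of the other heat shock genes, HSPA1A, HSPB1 and BAG3 among them, had no match. The ER stress element occurred in 0.074% of all promoters and in 6 of the 17 promoters of the endoplasmic reticulum genes, those of PDIA6, HSPA5, HSP90B1, CALR, XBP1 and CRELD2. The GATA motif occurred in 22.3% of all promoters, in 15.4% of the 16986 promoters of tested genes, in 29.8% of the 312 promoters of genes at least 8-fold higher with nilotinib and in 19.6% of the 838 promoters of genes at least 8-fold lower. Over all changed genes it was in 15.4% of 4982 promoters of higher genes and in 15.3% of 6477 promoters of lower genes. Promoters were found for 11878 of the tested genes, some with several. A match describes letters only and no binding was measured.

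The protein-coding genes with the largest rises included SLC4A1, ART4, CA1 and TNS1. SLC4A1, the band 3 anion exchanger of the red cell, was at 6.80, 3.83 and 6.29 CPM in hemin DMSO and at 4726, 5211 and 4932 CPM in hemin nilotinib (log2 fold change 9.78, SE 0.57, adjusted p = 1.01e-09). The hemin nilotinib libraries were close together and far above those of hemin DMSO. ART4, which carries the Dombrock blood group, had 1 count over the 3 hemin DMSO libraries and 1139 counts over the 3 hemin nilotinib libraries, a 1030-fold ratio with a 95% interval of 185 to 40800 that covers counting error only. CA1, a red cell carbonic anhydrase, was at 2.05, 2.65 and 3.68 CPM and rose to 955, 743 and 505 CPM (log2 fold change 8.03, SE 0.47). TNS1, a tensin that links integrins to actin, rose from 2.17 to 4.18 CPM to 354 to 419 CPM (log2 fold change 7.05, SE 0.33).

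The other large rises were mostly of genes with roles outside the red cell, although the study listed SOD3 with its erythroid genes, as part of the antioxidant system. PPP2R2C, a regulatory subunit of protein phosphatase 2A, was at 0.0919, 0.128 and 0.0254 CPM in hemin DMSO and at 81.0, 86.6 and 53.4 CPM in hemin nilotinib (log2 fold change 9.83, SE 0.33, adjusted p = 1.05e-11). ESPN, an actin-bundling protein of hair cells, was at 2.21, 1.47 and 2.56 CPM against 1152, 1099 and 1293 CPM (log2 fold change 9.14, SE 0.39). BEST3 (a bestrophin chloride channel) rose with a log2 fold change of 8.58, RLN3 (the neuropeptide relaxin 3) with 7.19 and SOD3 (extracellular superoxide dismutase) with 6.5. For RLN3, 27.2% of the exon length lies opposite another gene, and whether the counting used strand is not known. FAM20C, a kinase of secreted proteins, had 1 count over the hemin DMSO libraries and 656 over the hemin nilotinib libraries, a ratio of 595 (95% counting interval 106 to 23500).

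The largest falls joined ERK feedback genes with genes that were near 0 in the mock libraries. ETV4, an ETS transcription factor induced by ERK, was at 30.5, 54.1 and 33 CPM in hemin DMSO and at 0.374, 0.302 and 0.280 CPM in hemin nilotinib (log2 fold change -6.94, SE 0.28, adjusted p = 3.37e-11), and SPRY4, a feedback inhibitor of the same pathway, fell with a log2 fold change of -6.49 (SE 0.26). CACNA1G, a T-type calcium channel, was at 13.8, 19.2 and 18.1 CPM against 0, 0.0549 and 0.0467 CPM (log2 fold change -8.80, SE 0.43), with 0.162 CPM on average in mock DMSO. CHRM1, a muscarinic acetylcholine receptor, had 661 counts over the hemin DMSO libraries and 1 over the hemin nilotinib libraries, a ratio of 729 (95% counting interval 130 to 28800). Its 3 hemin DMSO libraries were spread widely, at 1.38, 8.33 and 9.0 CPM.

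ITGA1 (the collagen-binding integrin α1) was at 39.8, 34.2 and 33.6 CPM in hemin DMSO and at 0.0287, 0.329 and 0.654 CPM in hemin nilotinib, and its mock DMSO mean was 0.0634 CPM. The same pattern of a level in hemin DMSO well above both mock groups was seen in CETP (cholesteryl ester transfer protein, log2 fold change -6.67), SLC17A8 (a vesicular glutamate transporter, -6.58) and BTN1A1 (a butyrophilin, -6.74). SLC2A14 (a glucose transporter, -6.58) and CD3D (a chain of the T cell receptor complex, -6.53) fell too, with mock DMSO means of 2.72 and 5.31 CPM and mock nilotinib means of 0.180 and 0.156 CPM. The genes named for the largest changes were chosen among those whose libraries did not overlap between groups, so the lack of overlap is not a finding about them.

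Among noncoding genes the largest rises were AP003555.2, with 0 counts over the hemin DMSO libraries and 875 over the hemin nilotinib libraries, and AL137076.1, with 0 and 810, which are at least 87.5-fold and at least 77.5-fold higher when 3 counts per library are taken as the floor. AL031848.1 had 1 and 2673 counts, a ratio of 2420 with a 95% counting interval of 435 to 95800. It lies at chromosome 1 position 6443034 to 6447006 on the minus strand, within the span of ESPN on the plus strand, and 5.13% of its exon length is opposite another gene. The largest noncoding falls were LINC01300 (log2 fold change -5.59), the pseudogene PKMP1 (-5.11) and AL021407.3 (-5.09).

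By the change in CPM, which weighs a gene by its share of the reads, the largest rises were 3 mitochondrial RNAs (MT-CO1, MT-RNR2 and MT-CO3) with SLC25A37 and HBZ, and the largest falls included HSPA1A, HSPA1B, HSP90AB1 and HSP90AA1. SLC25A37 (mitoferrin 1, which brings iron into mitochondria for heme) was at 135, 184 and 182 CPM in hemin DMSO and at 6316, 7071 and 8715 CPM in hemin nilotinib (log2 fold change 5.46, SE 0.27). HBZ, the embryonic ζ-globin, was at 154, 203 and 199 CPM against 8630, 5236 and 3215 CPM (log2 fold change 4.94, SE 0.39). The hemin nilotinib replicates of HBZ were further apart than those of SLC25A37, with replicate 1 the highest. For HBZ, 27.2% of the exon length is shared with another gene on its strand.

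**Figure D1:**
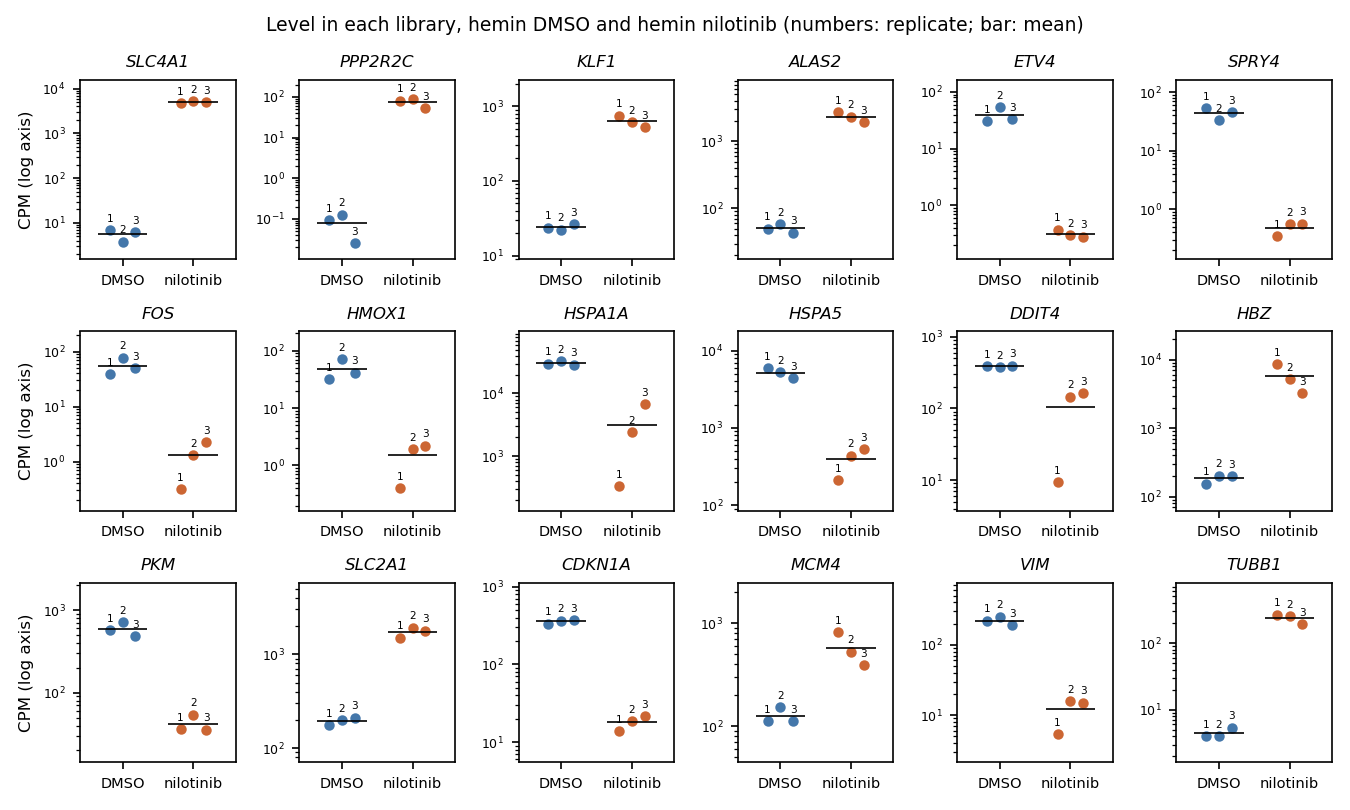
TMM-scaled CPM (y axis, log scale) of 18 named genes in the 3 hemin DMSO libraries (blue) and the 3 hemin nilotinib libraries (orange); each numbered point is a replicate and the bar is the mean of the group. No gene shown overlaps between groups, which was a condition for naming some of them. HSPA1A, HSPA5, HMOX1 and DDIT4 are lowest in hemin nilotinib replicate 1, where HSPA1A is at 332 CPM and DDIT4 at 9.28 CPM.

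Erythroid transcription factors rose as a group. Of the 16 tested of 17 listed, 14 rose, none fell, and SOX6 and ZBTB7A did not pass the test (log2 fold changes -0.06 and 0.12), with a median of 2.07 against 0.022 over all genes. GFI1B, a repressor needed for erythroid and platelet lineages, was at 9.01, 12 and 17.2 CPM in hemin DMSO and at 407, 358 and 313 CPM in hemin nilotinib (log2 fold change 4.81, SE 0.22, adjusted p = 1.21e-10). KLF1, the erythroid Krüppel-like factor, was at 23.6, 22.2 and 26.2 CPM against 751, 609 and 530 CPM (log2 fold change 4.71, SE 0.19). GATA1 rose less, from 130, 186 and 158 CPM to 330, 306 and 315 CPM (log2 fold change 1.0, SE 0.14), and its partners TAL1 (3.06), LMO2 (3.41), LDB1 (2.08) and ZFPM1 (2.68) rose more. The mock DMSO means of GFI1B, KLF1 and GATA1 were 141, 284 and 296 CPM, above the hemin DMSO libraries of each gene. For GATA1 the hemin nilotinib libraries were thus near the mock DMSO level. Its log2 fold change between the mock groups was 0.34 (edgeR adjusted p = 0.0572). BCL11A, the repressor of fetal globin, did not pass the filter. Without hemin nilotinib replicate 1 the same number rose, with a median of 1.81.

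By fold, the 5 largest rises among all genes marked as transcription factors in the deposited table were GFI1B, KLF1, VENTX (log2 fold change 4.5), ASCL2 (4.07) and NFE2 (3.48), and the 5 largest falls ETV4, GCM1 (-6.00), FOS (-5.38), FOSB (-5.30) and HES1 (-5.24). VENTX, a homeobox factor, was at 0.735, 1.08 and 0.659 CPM and rose to 17.9, 20.9 and 17.2 CPM. FOS, part of the AP-1 complex, fell from 38.5, 77.0 and 49.4 CPM to 0.316, 1.29 and 2.27 CPM, while both mock groups stood near 1 CPM (1.17 and 0.383). HES1, a Notch target, fell from 42.7, 74.1 and 58.7 CPM to 1.12, 1.84 and 1.66 CPM, and GCM1, a placental factor, from 10.1 to 17.2 CPM to 0 to 0.412 CPM. Of the genes marked as bZIP factors, 5 of 46 (10.9%) were higher and 25 (54.3%) lower, and of the ETS factors 2 of 23 (8.70%) and 13 (56.5%).

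Factors of progenitor cells moved mostly the other way. Of 13 listed, 8 passed the filter, of which 5 fell (KIT, HHEX, MYC, GATA2 and MEIS1), 1 rose and 2 did not pass the test, with a median log2 fold change of -0.83. HHEX, a homeobox factor of early progenitors, fell from 47.8, 68.9 and 65.7 CPM to 11.3, 13.5 and 12.8 CPM (log2 fold change -2.28, SE 0.15), and MYC fell from 213, 218 and 242 CPM to 85.3, 85.1 and 73.3 CPM (-1.47, SE 0.13). LYL1, a relative of TAL1, was the member that rose (1.45, SE 0.16). MYB, a progenitor factor that is shut off in maturing cells, did not pass between the hemin groups (log2 fold change -0.27, SE 0.18, adjusted p = 0.196), although it was at 307 CPM in mock DMSO and 36.3 CPM in mock nilotinib. Its hemin DMSO libraries, at 29.9, 57.2 and 48.9 CPM, were already near the nilotinib level. With hemin nilotinib replicate 1 left out, 4 progenitor factors fell, 1 rose and the median was -0.65.

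Red cell surface proteins and blood group carriers rose in 15 of the 18 genes tested of 19 listed, with 2 lower and 1 not past the test, and a median log2 fold change of 2.16. KEL, the Kell glycoprotein, was at 29.4, 32.5 and 36.4 CPM in hemin DMSO and at 683, 625 and 835 CPM in hemin nilotinib (log2 fold change 4.45, SE 0.18, adjusted p = 3.23e-11). AQP1, the water channel of the Colton blood group, rose from 4.24 to 5.42 CPM to 168 to 350 CPM (log2 fold change 5.78, SE 0.28), with 26.5% of its exon length shared with another gene on its strand. ERMAP (3.84), RHD (3.76), GYPB (3.73), RHCE (3.53) and GYPE (3.27) followed. RHD with RHCE, and GYPB with GYPE, are related copies, and at most 1.8% of the 150-base words of each occur in another gene. The 2 that fell were CD44 (-1.88), an adhesion receptor lost during erythroid maturation, and CD55 (-0.97), a complement regulator.

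Red cell enzymes rose in 8 of 12 genes, with 1 lower, 3 not past the test and a median log2 fold change of 1.39. PKLR, the pyruvate kinase of red cells, was at 73.8, 118 and 95 CPM against 804, 926 and 998 CPM (log2 fold change 3.25, SE 0.27), and BPGM, which makes 2,3-bisphosphoglycerate, rose with 2.20 and catalase (CAT) with 2.0. The other pyruvate kinase gene, PKM, fell from 571, 708 and 478 CPM to 36.5, 54.0 and 35.8 CPM (log2 fold change -3.80, SE 0.19, adjusted p = 2.22e-10). The pair moved in opposite directions, with no overlap between the libraries of the groups. GPX1, a glutathione peroxidase, was the enzyme that fell (-2.46), at no more than 1.24 CPM in any library.

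Heme synthesis and its iron and porphyrin transport rose in 12 of 14 genes, with a median log2 fold change of 2.92. ALAS2, the erythroid first enzyme of the pathway, was at 49.9, 58.6 and 43.5 CPM in hemin DMSO and at 2730, 2320 and 1912 CPM in hemin nilotinib (log2 fold change 5.52, SE 0.28, adjusted p = 2.85e-10). ALAS1, the housekeeping form of the same enzyme, was the gene that fell, from 52.1, 63.5 and 51.3 CPM to 13.1, 15.5 and 17.0 CPM (log2 fold change -1.87, SE 0.16). The later enzymes ALAD (2.52), UROS (3.43), UROD (1.5), CPOX (3.07), PPOX (3.58) and FECH (2.76) rose. SLC25A38, the mitochondrial glycine carrier, did not pass (-0.29). The summed CPM of the 14 genes was 898 to 1187 in hemin DMSO and 13525 to 14879 in hemin nilotinib, and without hemin nilotinib replicate 1 the median was 2.93 with 12 higher and 2 lower.

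Genes of late erythroid clearance, the removal of organelles and proteins late in maturation, were split. Of 14 tested, 9 rose, 3 fell and 2 did not pass, with a median of 0.63. TRIM58 (a ubiquitin ligase that acts in enucleation) rose from 21.8, 24.5 and 26.5 CPM to 131, 205 and 235 CPM (log2 fold change 2.97, SE 0.25) and FAM210B by 2.32. The members that fell were MAP1LC3B (an autophagosome protein, -1.61), UBE2O (a ubiquitin enzyme that clears ribosomes, -1.25) and GABARAPL2 (-0.42). For UBE2O the hemin DMSO libraries were at 322 to 331 CPM, above a mock DMSO mean of 101 CPM.

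**Figure D2:**
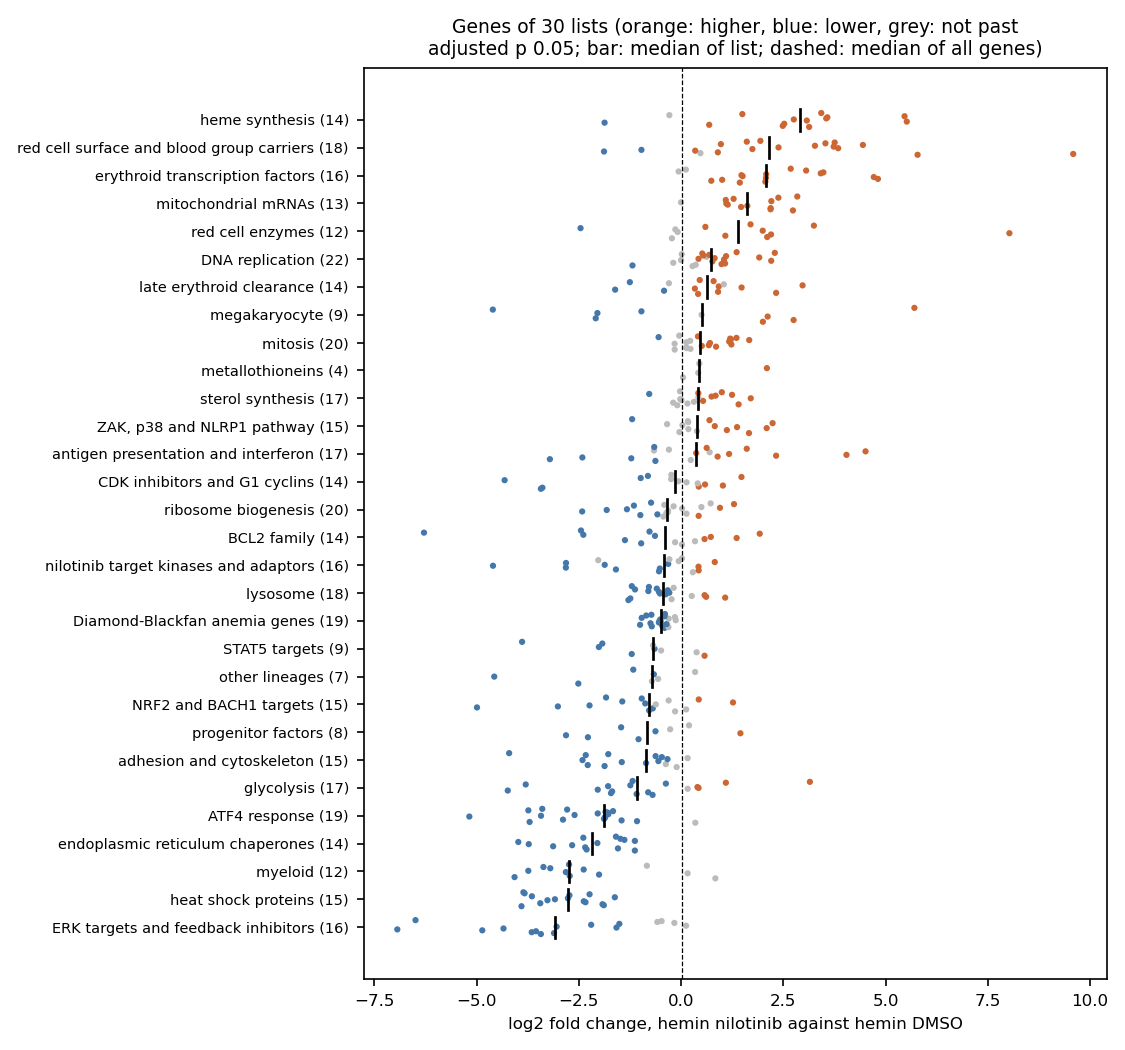
Log2 fold change of hemin nilotinib over hemin DMSO (x axis) for every tested member of the 30 gene lists (y axis, 1 row a list with its number of genes); each point is a gene, orange if higher, blue if lower and grey if not past an adjusted p of 0.05, the bar is the list's median and the dashed line the median of all genes. Heme synthesis has the highest median, 2.92, and ERK targets and feedback inhibitors the lowest, -3.08, against 0.022 for all genes.

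Genes of other blood lineages were mostly lower with nilotinib. Of 17 myeloid genes, 12 passed the filter, of which 9 fell, none rose and 3 did not pass, with a median of -2.73. SPI1 (PU.1, the myeloid master factor and an antagonist of GATA1) fell from 54.4, 64.5 and 60.4 CPM to 7.62, 9.22 and 9.98 CPM (log2 fold change -2.74, SE 0.14, adjusted p = 3.33e-10), and CD14 (-4.07), CSF3R (-3.73) and LYZ (-3.37) fell with it. The lineage was not silent in hemin DMSO, since LYZ (lysozyme) stood at 17.6 to 32.2 CPM there, but ELANE, MPO, CTSG, S100A8 and S100A9 did not pass the filter. In LYZ 34.0% of the exon length lies opposite another gene. Leaving out hemin nilotinib replicate 1 gave 9 lower and 1 higher, with a median of -2.53.

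Megakaryocyte genes moved in both directions, with 4 higher, 4 lower and 1 not past the test among the 9 that passed the filter of 16 listed. TUBB1, the platelet β-tubulin, rose from 4.04, 4.05 and 5.4 CPM to 265, 250 and 191 CPM (log2 fold change 5.70, SE 0.35), with 34.0% of its exon length opposite another gene. ITGA2B, the platelet integrin αIIb, fell from 30.8, 69.6 and 35 CPM to 7.24, 10.8 and 13.7 CPM (-2.09, SE 0.31), while its partner ITGB3, with 51.6% of its exon length shared with another gene on its strand, rose (2.12). THBS1 (thrombospondin 1) fell by 4.6 on the log2 scale. The median of the list, 0.50, was 0.068 without hemin nilotinib replicate 1 and 0.85 without replicate 2, and it was 0.26, 0.17 and 1.41 without hemin DMSO replicates 1, 2 and 3. Of 7 genes of lymphoid, epithelial, stromal and endothelial cells that passed the filter, 4 fell (COL1A2, PECAM1 and EPCAM among them), none rose, and the median was -0.71, or -1.23 without hemin nilotinib replicate 3. KRT19 (a keratin) was at 91.6 to 151 CPM in all 6 libraries and EPCAM (an epithelial adhesion protein) at 27.7 to 65.5 CPM, with mock means of 183 and 191 CPM for KRT19 and 63.1 and 43.1 CPM for EPCAM.

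Targets and feedback inhibitors of ERK had the lowest median of the lists, -3.08. Of 16 tested, 12 fell, none rose and 4 did not pass (PHLDA1, SPRED3, SPRY1 and SPRY2). The ETS factors ETV1 (log2 fold change -4.86, SE 0.27) and ETV5 (-4.34, SE 0.29) fell with ETV4, and so did the phosphatases DUSP5 (-3.65) and DUSP4 (-3.11) and the early response gene EGR1, from 22.8, 23.3 and 20.6 CPM to 1.29, 2.11 and 2.27 CPM (-3.55, SE 0.31). PHLDA1 was at 7.72, 6.54 and 8.90 CPM against 4.28, 12.4 and 8.55 CPM, with the groups overlapping. The median of the list was -2.82 without hemin nilotinib replicate 1.

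STAT5 targets showed a smaller shift, with 5 of 9 lower, 1 higher and a median of -0.69. SOCS3 fell from 57.1, 59.0 and 62.9 CPM to 2.62, 4.83 and 4.6 CPM (log2 fold change -3.89, SE 0.23), and SOCS2 (-1.93) and CISH (-1.21), feedback inhibitors of cytokine signaling, fell too. BCL2L1, which encodes the survival protein BCL-XL, rose (0.57, SE 0.14), from 28.0, 41.2 and 34.9 CPM to 53.8, 53.7 and 47.5 CPM, although in the mock groups it was lower with nilotinib, at 168 against 61.6 CPM. In this gene 43.0% of the exon length lies opposite another gene.

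Of the kinases that nilotinib binds and the adaptors of BCR-ABL1, 8 of 16 tested fell, 3 rose and 5 did not pass, with a median of -0.42. DDR2, a collagen receptor kinase, fell from 74.9, 77.0 and 79.7 CPM to 1.90, 3.13 and 4.46 CPM (log2 fold change -4.6, SE 0.28, adjusted p = 1.64e-09). KIT fell (-2.81), as did the adaptor GAB2 (-1.87) and the ubiquitin ligase CBL (-1.59). BCR, whose promoter drives the fusion gene, rose a little, from 142 to 168 CPM to 197 to 220 CPM (0.43, SE 0.12), and ABL1 did not pass (0.29, SE 0.14, adjusted p = 0.0836). Counts per gene do not separate the fusion transcript from the normal BCR and ABL1 transcripts.

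Genes of the ZAKα, p38 and NLRP1 pathway, in which the study placed the action of nilotinib, were mostly higher or not past the test. Of 15 tested (MAP2K6 and CASP1 did not pass the filter), 7 rose, 1 fell and 7 did not pass, a share of rises that can be read against the 32.4% of all genes, and the median was 0.39, with 0.59 and 0.26 without hemin DMSO replicates 1 and 3. MAP3K20, which encodes ZAKα, was at 49.7, 50.3 and 49.5 CPM in hemin DMSO and at 95.8, 91.8 and 77.1 CPM in hemin nilotinib (log2 fold change 0.82, SE 0.12, adjusted p = 2.34e-05). MAPK14 (p38α) rose from 38.4, 28.9 and 32.3 CPM to 167, 158 and 145 CPM (2.24, SE 0.13), and MAP2K3, the kinase above it, rose by 1.37. These are transcript levels, and kinase activity was not measured in these libraries.

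In the inflammasome arm, CARD8 rose (1.66, SE 0.14) and so did GSDMD, the pore-forming gasdermin D, from 4.47, 4.79 and 4.64 CPM to 9.08, 10.3 and 10.8 CPM (1.12, SE 0.18). NLRP1 was at 284, 168 and 236 CPM against 236, 314 and 562.4 CPM, and the groups overlapped. Its log2 fold change of 0.69 (SE 0.25, adjusted p = 0.0225) became 0.28 (adjusted p = 0.223) without hemin nilotinib replicate 3. PYCARD, the adaptor ASC, was the gene that fell (-1.20, SE 0.31), at no more than 5.81 CPM, with 59.7% of its exon length opposite another gene. DPP8, DPP9, IL18, MAPK8, MAPK9, MAPK11 and MAPK13 did not pass.

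Heat shock proteins formed the list with the largest loss of reads. All 15 tested fell, with a median of -2.77, and all 15 were lower in every alternative analysis that was run. The summed CPM of the list was 106940, 121160 and 98871 in hemin DMSO and 6958, 13643 and 23614 in hemin nilotinib replicates 1, 2 and 3. HSPA1A, an inducible HSP70, was at 30098, 32563 and 28816 CPM in hemin DMSO and at 332, 2384 and 6788 CPM in hemin nilotinib (log2 fold change -3.27, SE 0.64, adjusted p = 0.00034). Its level in the mock groups was 99.8 and 102 CPM on average, so hemin nilotinib replicate 1 was close to cells without hemin and replicate 3 was not. HSPA1A and HSPA1B are near-identical, 63.2% and 70% of their 150-base words occur in another gene, and they are best read together.

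Other chaperones showed the same order of libraries with smaller spread. HSPB1 (HSP27) was at 7394, 10287 and 5986 CPM against 368, 660 and 860 CPM (log2 fold change -3.65, SE 0.31), and the co-chaperone BAG3 at 1491, 1797 and 1285 CPM against 50.8, 102 and 153 CPM (-3.90, SE 0.30). The HSP90 genes whose promoters are shown above fell by similar amounts, HSP90AB1 (-2.38, SE 0.20) and HSP90AA1 (-2.34, SE 0.26). The mitochondrial pair HSPD1 (-2.73, SE 0.16) and HSPE1 (-2.24, SE 0.16) did not follow that order, with HSPD1 at 300, 297 and 274 CPM in hemin nilotinib. Without hemin nilotinib replicate 1 the 15 genes still fell, with a median of -2.53.

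Chaperones and sensors of the endoplasmic reticulum fell in all 14 genes tested (median -2.18), and in every alternative that was run. HSPA5 (BiP, the main chaperone of this compartment) was at 5891, 5248 and 4438 CPM in hemin DMSO and at 210, 435 and 533 CPM in hemin nilotinib (log2 fold change -3.72, SE 0.28, adjusted p = 1.62e-08). MANF, a secreted stress factor, fell from 83.5, 128 and 111 CPM to 4.89, 8.10 and 7.43 CPM (-3.98, SE 0.21). The smallest falls were those of CALR (calreticulin, -1.13) and PDIA4 (-1.13). Without hemin nilotinib replicate 1 the median was -2.06.

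Genes of the ATF4 response, a list that includes ATF4 itself, fell in 18 of 19, with a median of -1.88. ATF4, the factor of the integrated stress response, was among those that fell. PHGDH, which opens serine synthesis, was at 545, 661 and 566 CPM against 7.36, 80.5 and 77.0 CPM (log2 fold change -3.42, SE 0.53), and CHAC1 at 169, 102 and 148 CPM against 0.719, 24.5 and 31.3 CPM (-2.89, SE 0.67). NUPR1 (-5.18) and ATF3 (-3.70) fell further. ASNS, asparagine synthetase, did not pass (0.35, SE 0.58, adjusted p = 0.618), with 30.1, 24.1 and 25.8 CPM in hemin DMSO and 2.62, 30.2 and 68.7 CPM in hemin nilotinib, a range that spans both sides. In ASNS 44.6% of the exon length is shared with another gene on its strand. Without replicate 1 the list had 18 lower and 1 higher, with a median of -1.73.

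The targets of NRF2 and BACH1, which sense oxidants and heme, were less uniform, with 9 of 15 lower, 2 higher, 4 not past the test and a median of -0.78. HMOX1 was at 31.7, 71.9 and 41.2 CPM in hemin DMSO and at 0.402, 1.89 and 2.20 CPM in hemin nilotinib (log2 fold change -4.99, SE 0.44, adjusted p = 9.14e-08). ME1 (malic enzyme, -3.01) and NQO1 (a quinone reductase, -2.24) also fell, whereas SLC48A1, which moves heme out of lysosomes, rose (1.27, SE 0.17). Of the ferritin chains, FTL fell (-0.78, SE 0.22) and FTH1 did not pass (-0.15, SE 0.18), at 3022 to 3787 CPM against 2604 to 3432 CPM. In FTH1 62.4% of the exon length lies opposite another gene. GCLM (-0.69, SE 0.29) did not pass without hemin nilotinib replicate 1, and the median of the NRF2 and BACH1 targets was then -0.56, with 8 lower and 2 higher. Of 4 tested metallothionein and zinc genes of 8 listed, MT2A rose (2.10, SE 0.46) and 3 did not pass, with a median of 0.43 that ranged from 0.022 to 0.86 when hemin libraries were left out one at a time.

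**Figure D3:**
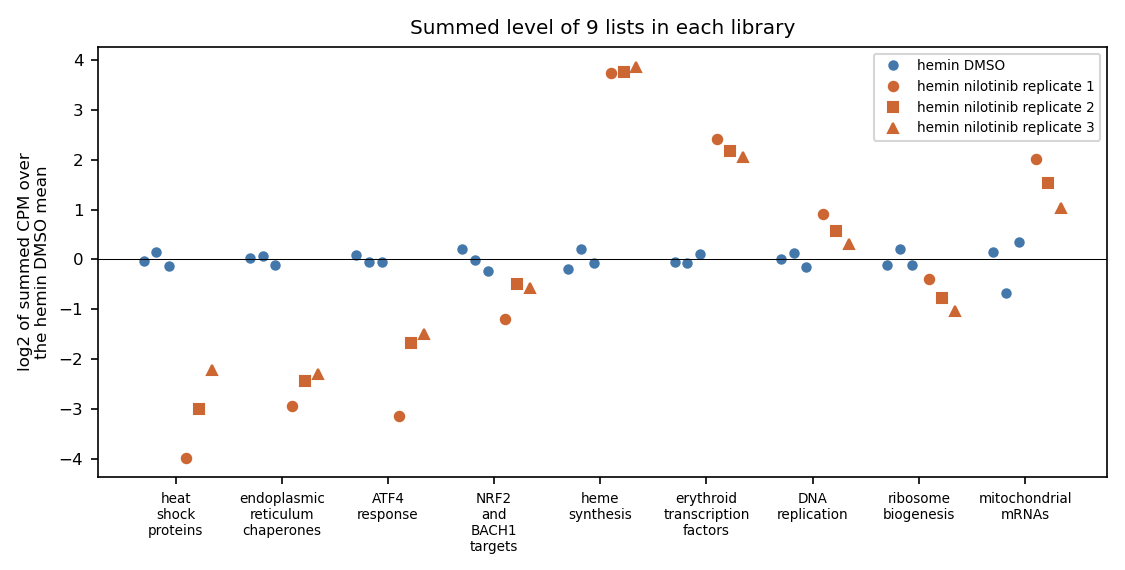
Log2 of the summed CPM of 9 gene lists relative to the hemin DMSO mean (y axis) by list (x axis); each point is a library, blue for hemin DMSO and orange, with a shape for each replicate, for hemin nilotinib. In the heat shock list hemin nilotinib runs from a summed 6958 CPM in replicate 1 to 23614 CPM in replicate 3, below the 98871 CPM of the lowest hemin DMSO library, and in heme synthesis it runs from 13525 to 14879 CPM, above the 1187 CPM of the highest.

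Genes mutated in Diamond-Blackfan anemia, most of them ribosomal proteins, fell by small amounts. Of 19 tested, 15 fell, none rose and 4 did not pass, with a median of -0.50 and no fall beyond the -1.0 of RPL27 (SE 0.15). RPS19, the gene most often mutated in this anemia, was at 1259, 1762 and 1321 CPM in hemin DMSO and at 1045, 1035 and 978 CPM in hemin nilotinib (log2 fold change -0.51, SE 0.15, adjusted p = 0.00666). The count of falls was 1 when a 2-fold change was also required and ranged from 6 to 17 over the other alternative analyses. The calls of single genes in this list thus depend on the analysis. None of the 150-base words of RPS19 and RPL27 occur in another annotated gene, against 25.4% for RPS10.

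Ribosome biogenesis factors were split, 7 lower, 3 higher and 10 not past the test among 20, with a median of -0.34. NPM1 (nucleophosmin) fell from 1066, 1245 and 963 CPM to 412, 487 and 409 CPM (log2 fold change -1.32, SE 0.16) and NOP58 by 1.82 on the log2 scale. The 3 that rose were RRS1 (1.29), POLR1A (the large subunit of RNA polymerase I, 0.95) and DKC1 (0.43). POLR1A was at 90.2, 39.1 and 33.8 CPM in hemin nilotinib replicates 1, 2 and 3, against 31.8, 23.2 and 29.3 CPM in hemin DMSO. Without replicate 1, 12 of the 20 fell, none rose, and the median was -0.73. Without hemin nilotinib replicate 3, 6 fell, 5 rose and the median was -0.10, and without hemin DMSO replicate 2 it was -0.19.

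DNA replication genes rose in 15 of 22, with 1 lower, 6 not past the test and a median of 0.73. RRM2 (a subunit of ribonucleotide reductase) was at 23.3, 32.9 and 21.3 CPM against 206, 112 and 61.8 CPM (log2 fold change 2.29, SE 0.32), MCM4 (a helicase subunit) rose by 2.20 and PCNA by 1.91. CDC6, which licenses origins, was the gene that fell (-1.19, SE 0.17). Replicate 1 was the highest of the hemin nilotinib libraries in the summed level as well, at 5930 CPM against 4708 and 3925, with 2833 to 3457 CPM in hemin DMSO. Without it 14 rose, 2 fell and the median was 0.57.

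Of 20 mitosis genes, 11 rose, 1 fell and 8 did not pass, with a median of 0.46. KIF20A (a kinesin of cytokinesis) rose from 40.1, 32.0 and 31.5 CPM to 101, 130 and 97.5 CPM (log2 fold change 1.67, SE 0.15) and MKI67 by 1.35, while PLK1 fell (-0.55, SE 0.12). Of 14 CDK inhibitors and G1 cyclins, 5 fell, 4 rose and 5 did not pass, with a median of -0.15. CDKN1A (p21, which halts the cycle) was at 333, 365 and 371 CPM in hemin DMSO and at 13.7, 18.5 and 21.5 CPM in hemin nilotinib (-4.31, SE 0.20, adjusted p = 1.21e-10), and CCND1 (-3.43) and CCND2 (-3.39) fell too. CCNE1 (1.02) and CCNE2 (0.59) were highest in hemin nilotinib replicate 1 and did not pass without it, nor did CCND3 (0.43), leaving 1 gene higher and 5 lower. Without hemin DMSO replicate 1, 2 genes were higher. The median was -0.071 without hemin DMSO replicate 2 and -0.010 without hemin nilotinib replicate 3.

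In the BCL2 family 7 of 14 fell, 4 rose and 3 did not pass, with a median of -0.39, or -0.25 without hemin DMSO replicate 2. The rises included the pro-death members BMF (1.92, SE 0.29) and BCL2L11 (BIM, 1.36, SE 0.15), the latter from 22.2, 20.7 and 23.1 CPM to 71.2, 54.3 and 43.8 CPM. The falls included the pro-death members PMAIP1 (NOXA, -2.45) and BIK (-2.39) and the pro-survival MCL1, from 304, 218 and 317 CPM to 170, 170 and 152 CPM (-0.77, SE 0.14). HRK had 97 counts over the hemin DMSO libraries and 1 over the hemin nilotinib libraries, a ratio of 107 (95% counting interval 18.7 to 4270). Members of both kinds thus changed in both directions.

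Messenger RNAs of the mitochondrial genome rose in 12 of 13, with a median of 1.62 and MT-ND2 not past the test (-0.00, SE 0.26). MT-CO1, a cytochrome c oxidase subunit, was at 4776, 1924 and 4025 CPM in hemin DMSO and at 21813, 16081 and 11061 CPM in hemin nilotinib (log2 fold change 2.19, SE 0.30, adjusted p = 1.09e-05). MT-CYB (1.14, SE 0.36) rose too, but its libraries overlapped, at 527 to 1272 CPM against 1040 to 2857 CPM. The mitochondrial genome took 2.88%, 1.45% and 2.86% of the counts in hemin DMSO and 8.83%, 7.03% and 5.20% in hemin nilotinib, and 6.02% to 7.35% in mock DMSO. The low values were thus those of hemin DMSO. Hemin DMSO replicate 2 was the lowest of its group. When hemin nilotinib replicate 1 was left out, 11 of the 13 messenger RNAs rose, with a median of 1.32.

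Glycolysis fell in 12 of 17 genes, with 4 higher, 1 not past the test and a median of -1.09. Without hemin DMSO replicate 2, 11 fell, 5 rose and the median was -0.65. HK2 (hexokinase 2, the inducible first enzyme) was at 34.9, 38.2 and 40.2 CPM in hemin DMSO and at 1.41, 2.75 and 1.85 CPM in hemin nilotinib (log2 fold change -4.24, SE 0.23, adjusted p = 5.45e-10), and LDHA (lactate dehydrogenase A, -2.04) and ENO1 (enolase, -1.71) fell with PKM. SLC2A1, the glucose transporter GLUT1 that is abundant on human red cells, rose from 176, 198 and 212 CPM to 1502, 1913 and 1787 CPM (3.15, SE 0.18). SLC16A3, PFKM and PFKP were the other rises, all of 1.10 or less.

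Of 17 sterol synthesis genes, 8 rose, 1 fell and 8 did not pass, with a median of 0.42. INSIG1, a brake on the pathway, rose from 115, 138 and 131 CPM to 437, 394 and 422 CPM (log2 fold change 1.70, SE 0.18). Lysosomal genes fell in 12 of 18 and rose in 3, the cathepsins CTSB (1.08), CTSD (0.61) and CTSZ (0.58), with a median of -0.45. Of the exon length of CTSD, 41.7% is shared with another gene on its strand. LAMP1, a membrane protein of lysosomes, fell from 138, 143 and 133 CPM to 85.9, 78.6 and 73.0 CPM (-0.80, SE 0.13). Without hemin nilotinib replicate 1, 7 lysosomal genes fell and 4 rose.

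Adhesion and cytoskeleton genes fell in 12 of 15, with none higher and a median of -0.86. VIM (vimentin, which is lost in red cell maturation) was at 222, 253 and 190 CPM against 5.29, 15.6 and 15.1 CPM (log2 fold change -4.20, SE 0.35, adjusted p = 4.86e-08), and LGALS1 (galectin 1, -2.41), TMSB10 (-2.33) and ANXA1 (-2.28) fell too. ACTB did not pass (-0.11), whereas ACTG1, the other cytoplasmic actin, fell from 945, 1435 and 993 CPM to 211, 351 and 361 CPM (-1.87, SE 0.25). Of 17 genes of antigen presentation and interferon response, 8 rose, 5 fell and 4 did not pass, with a median of 0.37. NLRC5, an activator of class I genes, rose from 0.0613, 0.766 and 0.406 CPM to 10.8, 10.3 and 6.99 CPM (4.51, SE 0.46) and IFIT3 by 4.04, while HLA-E (-2.41) and HLA-B (-3.21) fell.

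The log2 fold change of nilotinib over DMSO differed between the hemin and the mock groups for 6271 of the 20821 genes (30.1%), by the interaction term of the same edgeR fit, with the limit on time in culture and exposure given above. For SLC4A1 the mock groups were at 27.0 and 4639 CPM on average, and hemin DMSO was below mock DMSO, with a difference of 2.35 on the log2 scale (edgeR adjusted p = 0.006). PKM (difference 0.51, adjusted p = 0.13) and ETV4 (0.22, adjusted p = 0.74) did not pass this test. HSPA1A differed by -3.30 on the log2 scale (adjusted p = 0.0089).

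The changes were not alike over gene classes. Of the 14208 protein-coding genes tested, 28.9% were higher and 38.6% lower with nilotinib (median log2 fold change -0.17), whereas of 1564 lincRNA genes 40.3% were higher and 19.0% lower (median 0.54), and of 1752 antisense genes 42.1% and 12% (median 0.73). Antisense genes share their place with a gene on the other strand, and since it is not known whether the counting used strand, their reads cannot be told apart from those of the partner.

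**Figure D4:**
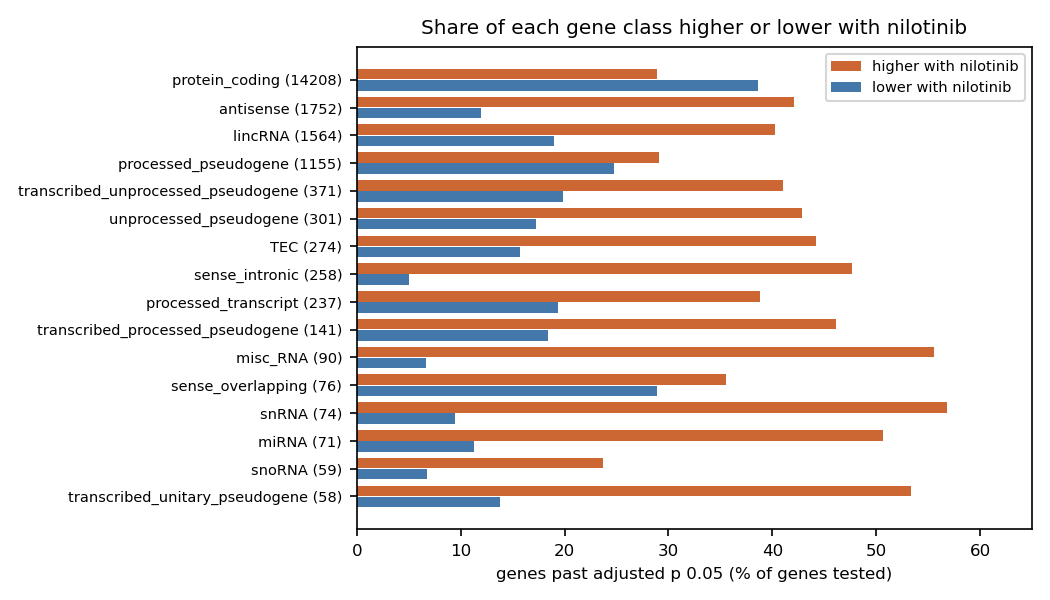
Percent of tested genes (x axis) that were higher (orange) or lower (blue) with nilotinib at an adjusted p of 0.05, by gene class in the annotation (y axis, with the number tested); bars start at 0. Falls outnumber rises in protein-coding genes, 38.6% against 28.9%, and rises outnumber falls in antisense genes, 42.1% against 12%.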

How the data were processed

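RNA of K562 cells was extracted with TRIzol and sequenced as 150-base paired-end reads by a sequencing service. The raw counts deposited by the authors, 1 value for each gene and library of the 12, had no normalization and entered the tests as they stood. The authors also deposited FPKM, in which counts per kilobase were divided by a single median-of-ratios constant per library; these were used only in an alternative on log2(FPKM + 1). The deposited condition means of FPKM were left out. The submitters' processing notes name GRCh38.p12, DESeq2 and DESeq. The aligner, the counting tool and its use of strand are not given in the sources used here. All gene identifiers matched GENCODE 29, from which positions, overlaps and shared 150-base words were computed.

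Counts were analysed with edgeR 4.0.16 in R 4.3.3. After the filterByExpr step (at least 10 counts, total at least 15) and TMM scaling, a quasi-likelihood model gave each condition its own mean, and the 12 libraries shared 1 estimate of the spread (common coefficient of biological variation 0.198). Tests were two-sided, at a Benjamini-Hochberg adjusted p under 0.05, and the SE is the log2 fold change divided by the square root of F. With 3 libraries against 3, an exact permutation test cannot go below p = 0.1 and was not used. P-values measure the spread between these replicates of a single line. Where a group held at most 1 count in all, folds are ratios of summed counts with exact intervals, or bounds at a floor of 3 counts per library.

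Named genes were the 10 protein-coding genes with the largest rise and fall, the 3 noncoding genes, the 5 genes by change in CPM and the 5 marked transcription factors each way (adjusted p under 0.05, mean of at least 100 counts, no overlap between libraries), and up to 4 members of each of 30 gene lists, with further members given by their fold alone. A few genes that these rules cover are not reported here. The comparison, the lists and their members were chosen with earlier results of these data known, so the lists are described by counts and medians and were not tested. Alternatives were DESeq2 1.42.0, scaling by RLE, by the upper quartile or by library totals, no filter on low counts, a stricter filter (10 counts or more throughout), a 2-fold minimum, limma-trend 3.58.1 on the FPKM, a fit of the 6 hemin libraries only, a block for the replicate number, and omission of single libraries. The procedure was tested on simulated data. Promoters came from RefSeq (GRCh38.p14), matched by symbol. Processing used Python 3.11.15.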

Additional observations from a re-analysis of the deposited data

Results flagged for a closer look

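For 17 of the 29 largest changes among protein-coding genes and transcription factors, the log2 fold change of nilotinib over DMSO differed between the hemin and the mock groups by the interaction test in edgeR (adjusted p under 0.05). The 29 were chosen by their change with hemin, which is part of this difference, so their share is not set against that of all genes (30.1%). Hemin cannot be told apart here from time in culture and length of exposure to nilotinib, which are not certain for the mock cells. Differences are the log2 fold change with hemin minus that without hemin. Groups of 3 libraries were not tested for single outlying libraries.

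Among the genes that rose, the difference was 2.351 for SLC4A1, 3.069 for ESPN, 3.295 for BEST3, 2.045 for CA1, 2.803 for TNS1 and 1.302 for SOD3. The difference for SOD3 did not pass without hemin DMSO replicate 1 (adjusted p = 0.0573), hemin DMSO replicate 3 (0.0535) or mock DMSO replicate 2 (0.0623) in edgeR. For the transcription factors that rose it was 3.125 for GFI1B, 3.346 for KLF1, 2.797 for VENTX, 1.795 for ASCL2 and 2.446 for NFE2, of which that for ASCL2 did not pass in edgeR without hemin DMSO replicate 2 (adjusted p = 0.0599). KLF1 was at 284 CPM on average in mock DMSO and at 22.2 to 26.2 CPM in hemin DMSO, whereas hemin nilotinib stood at 530 to 751 CPM and mock nilotinib at 733 CPM on average.

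Among the genes that fell, the difference was -7.523 for CACNA1G, -6.346 for CETP and -2.657 for SLC2A14, and among the transcription factors -3.807 for FOS, -4.367 for FOSB and -1.492 for HES1. The difference for SLC2A14 did not pass in edgeR without mock nilotinib replicate 3 (-1.76, adjusted p = 0.149). FOSB was at 24.8, 49.4 and 33.8 CPM in hemin DMSO, against means of 1.41 CPM in mock DMSO and 0.739 CPM in mock nilotinib. The cause of these differences was not tested.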

How the results depend on the processing

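Of 1785 values recomputed for 110 results, 1739 were counted as unchanged, and no call changed direction. Single genes had to keep their side of the threshold and, where past it, their direction. Medians of lists had to move by no more than the replicate spread. Counts of genes had to stay within a fixed ratio of the main count. Medians of 3 lists changed sign: BCL2 family and antigen presentation (values below), and CDK inhibitors and G1 cyclins, at 0.027 with library totals alone against -0.15. The count of changed genes was 13384 with RLE, 13335 with upper-quartile and 13221 with no composition factors, 13441 with DESeq2 (3 genes without an adjusted p), 13196 with limma on the FPKM, 11292 with the 6 libraries alone, 14882 of 40578 genes without the filter, 9755 of 14845 with at least 10 counts in every library, 8936 with the 2-fold minimum, and 12608 to 13828 with a library left out. In each of these, every gene also called with all libraries and TMM kept its direction. With library totals alone the median of all genes moved to 0.199 and 58.4% of changed genes were higher, against 50.5%.

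Whether the replicate numbers pair the libraries could not be decided with 3 libraries in each group. Between hemin DMSO and hemin nilotinib libraries of different numbers, the deviations from the group correlated at -0.202 to 0.129. The deviations of same-numbered hemin DMSO and hemin nilotinib libraries correlated at -0.00712, 0.0818 and 0.235. With the replicate number as a block, 13657 genes changed with 12 libraries and 11252 with the 6. The difference between presence and absence of hemin was called in 4862 to 6858 genes over its alternatives, against 6271.

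MT-RNR2 did not pass in limma on the FPKM (adjusted p = 0.148), nor with the 2-fold minimum. The difference for ART4, CHRM1 and SLC17A8 passed in some alternatives. The median of the myeloid list was -0.46 and that of the ERK list -1.49 in limma on the FPKM, where low genes shrink by the pseudocount. With at least 10 counts in every library, which tests fewer members, the median was 2.11 for the megakaryocyte list, 0.020 for the BCL2 family (against -0.39) and -0.30 for antigen presentation (against 0.37). Genes under 0.0701 to 0.0957 CPM lie below 3 counts and their folds are imprecise.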

Other observations

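Small noncoding RNAs and intronic transcripts leaned toward rises. Of 74 snRNA genes tested, 56.8% were higher and 9.46% lower with nilotinib, of 90 genes of the class misc_RNA 55.6% and 6.67%, of 71 miRNA genes 50.7% and 11.3%, and of 258 sense-intronic genes 47.7% and 5.04%, with a median log2 fold change of 1.04 for the last. Many of these genes lie inside the introns or exons of others, and reads from an overlapping gene cannot be told apart from their own.

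Families of transcription factors differed in their balance of rises and falls. Of 538 zinc finger factors of the C2H2 family, 37.7% were higher and 26.0% lower, and of 83 homeobox factors 22.9% and 44.6%. By chromosome, 27 of the 36 tested genes of the mitochondrial genome were higher (75%), and among the others chromosome 22 had the largest share of higher genes, 40.6% of 561. These counts describe the libraries and were not tested.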
